A study of Homo sapiens with 2 samples.

Results

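The RNA exosome genes EXOSC1 to EXOSC10 were followed in HT-29, an established line of human colorectal adenocarcinoma cells, after siRNA against MYC. The members were taken by name as every probe set whose platform annotation gives a single one of these symbols, which yielded 25 probe sets for 10 of the 19775 genes on the array. All 10 members had a probe set above a signal of 50, the floor that the study's methods place under low values. The comparison was between 2 arrays, 1 of cells transfected with a pool of siRNAs against MYC and 1 of control cells. For the control the protocol names a non-targeting siRNA pool, whereas its treatment label says None. Both received 20 nM siRNA for 24 h and were used after 48 h, and no source used here says whether the 48 h include the 24 h. Each group was a single array, so the values below have no replicate error, no test was made and no p-value is given.

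The exosome is the main nuclease machine that degrades and trims RNA from its 3′ end, in the nucleus and in the cytoplasm. The RNase PH-like proteins EXOSC4 to EXOSC9 form a ring that has lost catalytic activity in human cells, and EXOSC1, EXOSC2 and EXOSC3, which carry S1 or KH RNA-binding domains, form a cap on it through which RNA is threaded. Catalysis comes from attached enzymes, namely DIS3 or DIS3L below the ring and EXOSC10 above the cap. EXOSC10 is thus an associated enzyme rather than a subunit of the 9-part ring and cap, and it is given separately below. Among the substrates of the exosome are the precursor of 5.8S ribosomal RNA, unstable non-coding transcripts and faulty mRNA. MYC binds DNA together with MAX at the E-box, CACGTG, and genes of ribosome production are among its textbook targets.

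The promoter of EXOSC5 is shown because EXOSC5 was the member with the lowest ratio and the only matched member whose promoter held the E-box. RefSeq promoters on GRCh38.p14, from 250 bases before to 50 after each start, were matched for 8 of the 10 members, and EXOSC3 had 2 of them. The stretch before the start of EXOSC5 at chr19:41397360-41397609, on the minus strand and overlapping no annotated gene, is given in lower case with CACGTG in capitals.
EXOSC5: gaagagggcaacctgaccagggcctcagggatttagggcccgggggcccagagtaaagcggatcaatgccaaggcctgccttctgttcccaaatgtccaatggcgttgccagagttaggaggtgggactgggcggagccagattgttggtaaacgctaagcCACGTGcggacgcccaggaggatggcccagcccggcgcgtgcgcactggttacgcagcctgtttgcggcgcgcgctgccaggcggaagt
A second E-box lay within the EXOSC5 transcript, at positions 15 to 20 counted from the first transcribed base as 1, in the window chr19:41397328-41397357 on the minus strand.
EXOSC5 second window: caactgcagccgCACGTGggctcggcgcga
The first E-box lay at -89 to -84. CACGTG, which reads the same on both strands, was held by 2548 of 35116 promoters of this length (7.26%). The variant CACGCG or its reverse complement CGCGTG was held by 4014 of them (11.4%), and by the promoters of 3 matched members. In EXOSC5 it was at -54 to -49. The windows of the other pair of members are given with CACGCG in capitals, the one of EXOSC3 at chr9:37785301-37785330 and the one of EXOSC10 at chr1:11099874-11099903, both on the minus strand.
EXOSC3: ccggtcacaaaaCACGCGacccgagacact
EXOSC10: atgcgtggtgcgCACGCGtcccgtctcctc
The window of EXOSC10 lies within the annotated antisense gene EXOSC10-AS1, and that of EXOSC3 overlaps no annotated gene. Among 17 matched genes of the other exosome nucleases and cofactors, 5 held CACGCG, namely MPHOSPH6, MTREX, PABPN1, TENT4B and ZFC3H1, and 1 held CACGTG, the gene SKIC3, which is printed for comparison from chr5:95554997-95555026 on the minus strand.
SKIC3: gccacttccagtCACGTGaatgagtcctgg
The percentages above count promoters, while members and cofactors are counted as genes with a match in any promoter. A gene with several promoters thus had more chances of a match. EXOSC3, PABPN1 and TENT4B each had a promoter with CACGCG and another without it. These matches describe letters in a window, and binding was not measured.

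Before the members, the array pair was examined. MYC had a signal of 1640 with MYC siRNA, against 1963 with control siRNA, which was 1.20-fold lower, in the 1 probe set that names it. Its log2 ratio of -0.26 shrank to -0.16 after loess and -0.17 after quantile normalization, alternatives chosen after seeing the data, against an SD of 0.175 between probe sets of bright genes. Of all 8917 genes above 50, 21.6% had a ratio at least as low as that of MYC. The paper shows immunoblots of MYC protein after MYC siRNA and reports that the knockdown reduced cell growth. It also reports lower expression of curated MYC target signatures. The arrays used here are the MYC siRNA microarrays that the paper deposited, so the signature result is not independent of them. Protein and growth are not measured by these arrays. RNA quality was read from ACTB, whose 3′ probe set over its 5′ one gave 1.14 with MYC siRNA and 1.16 with control siRNA, and from GAPDH, which gave 1.02 with MYC siRNA and 1.0 with control siRNA. Of 10 colon epithelium markers, 8 were above 50, and the transcription factors CDX1 and CDX2 were not. Of the 8, 6 were higher with MYC siRNA, with a median log2 ratio of 0.28, and 2 of them by at least 1.5-fold, namely CEACAM5 (2.18-fold) and LGALS4 (1.72-fold), both found in differentiated colon cells. The summed signal of all 10 markers, each by its brightest probe set in the array concerned, was 37190 with MYC siRNA and 32910 with control siRNA. Of 7 markers of other cell types with a probe set, COL1A1 alone was above 50, and the summed signal was 137.6 and 170.1 in the same order; the part of these differences in the results below was not tested. The median log2 ratio of all genes was 0.03, and it shifted with brightness, with values of 0.15 for the dimmest genes and -0.10 for the brightest when they were split by signal into 5 groups. As a yardstick, the log2 ratios of different probe sets of the same gene had an SD of 0.275, 0.229 and 0.175 in dim, middle and bright genes, which leaves out the variation between cultures.

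All 10 members were lower with MYC siRNA, by 1.07-fold to 1.75-fold, where 46.5% of all genes above 50 were lower. The median log2 ratio of the 10 was -0.52. Lower by at least 1.5-fold were 4 of them, EXOSC5, EXOSC7, EXOSC4 and EXOSC2, as were 5.72% of all genes. By the study's 2-fold rule no member was a DOWN DEG through its brightest probe set, compared with 0.695% of all genes. In the other direction, 10.4% of all genes were higher by at least 1.5-fold and 2.73% by at least 2-fold, and 0 members were. All 10 ratios thus lay below the array median, and their sizes were unequal, with EXOSC10 at 1.07-fold and EXOSC6 at 1.17-fold within or near the spread between probe sets given above. In total RNA of a culture, a smaller share of cells with a transcript and less of it in each cell cannot be told apart.

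At the level of probe sets, 18 of the 25 were above 50, and these were above 50 in both arrays. All 18 were lower with MYC siRNA, against 49.2% of all probe sets above 50, and 7 of the 18 were lower by at least 1.5-fold, against 5.83%. Of all probe sets, 9.13% were higher by at least 1.5-fold and 2.19% by at least 2-fold, against 0 of the 18. The other 7 probe sets were at or under 50 in both arrays, the highest of them at 35.6, and no ratio is given for them. One further probe set names EXOSC7 together with CLEC3B and was left out. Probe sets of 1 gene share that gene and are not independent of each other.

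**Figure D1:**
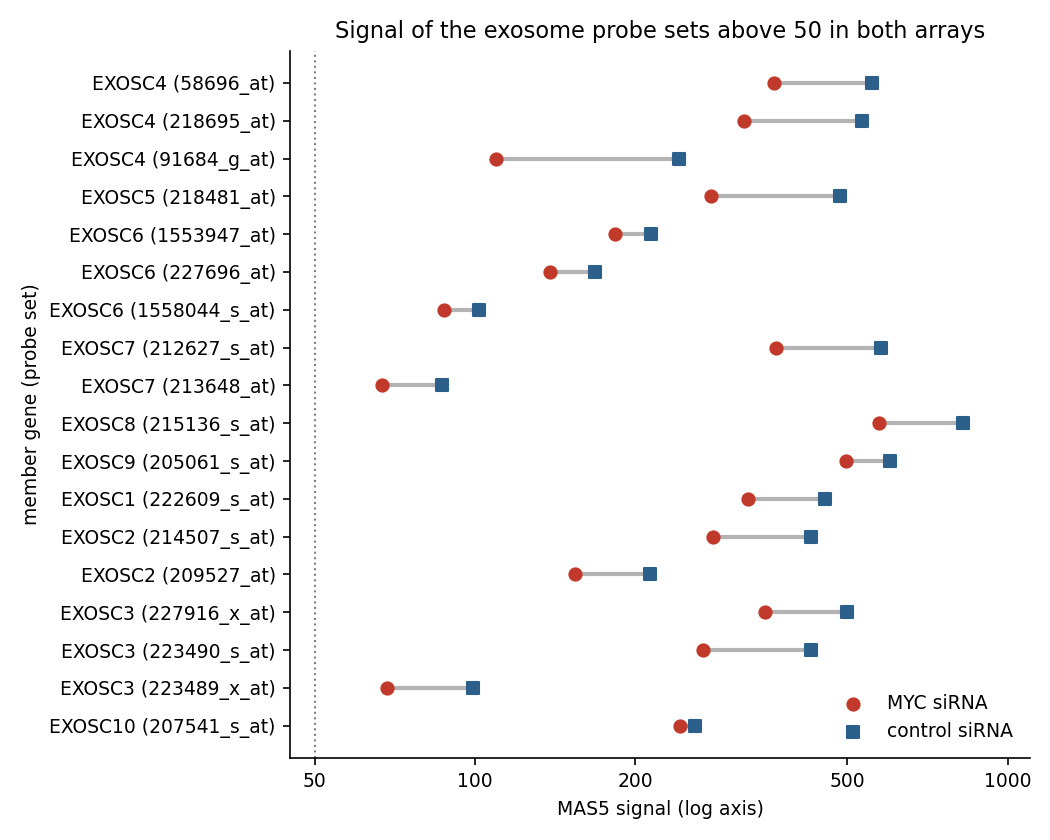
MAS5 signal (x axis, log scale) of the 18 exosome probe sets above 50 (rows) with MYC siRNA (red circles) and control siRNA (blue squares), 1 array each, with the dotted line at the floor of 50. The red circle lies left of the blue square in all 18 rows, with the widest gap in a probe set of EXOSC4 (110 and 242) and the narrowest in EXOSC10 (242 and 259).

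The ring subunits were considered first. EXOSC5, also called RRP46, had the lowest ratio of the members, with a signal of 277 with MYC siRNA and 484 with control siRNA (1.75-fold lower, log2 ratio -0.81). A ratio at least as low was found in 1.78% of all genes, and in 2.36% of the genes in its brightness group. EXOSC5 is picked here as the lowest member, so these shares describe a chosen minimum. Its value rests on 1 probe set.

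EXOSC4, or RRP41, which pairs with EXOSC9 in the ring, was measured by 3 probe sets. The brightest gave 364 with MYC siRNA and 556 with control siRNA (1.53-fold lower), and the next gave 320 with MYC siRNA and 534 with control siRNA (1.67-fold lower). The dimmest gave 110 with MYC siRNA and 242 with control siRNA, which was 2.21-fold lower and the only exosome probe set to meet the rule for a DOWN DEG, met by 0.607% of all probe sets. The 3 log2 ratios, from -1.14 to -0.61, spanned 0.53, the widest range within a member, so the direction for EXOSC4 was shared by its probe sets and the size was not settled.

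EXOSC7, or RRP42, had 367 with MYC siRNA and 577 with control siRNA (1.57-fold lower) in its brightest probe set. A dim one had 66.8 and 86.8, in the same order (1.30-fold lower). EXOSC8, or RRP43, was the brightest member, at 573 with MYC siRNA and 825 with control siRNA (1.44-fold lower, log2 ratio -0.52). It rests on 1 probe set that can bind several transcripts, and RefSeq lists a pseudogene of it, EXOSC8P1.

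The last pair of ring subunits were closer to the control. EXOSC9, the autoantigen PM/Scl-75, had 497 with MYC siRNA and 602 with control siRNA (1.21-fold lower, log2 ratio -0.28). Its only probe set can bind several transcripts, as can the only ones above 50 of EXOSC1 and EXOSC10. EXOSC6, or MTR3, had 183 with MYC siRNA and 214 with control siRNA (1.17-fold lower). Its other probe sets gave 138 with MYC siRNA and 168 with control siRNA, and 87.5 with MYC siRNA and 102 with control siRNA. The 3 log2 ratios of EXOSC6 lay between -0.28 and -0.21, the closest spacing among members with several probe sets, although each was near the SD between probe sets at that brightness. At least as low a ratio was found in 24.3% of all genes for EXOSC6 and in 20.4% for EXOSC9.

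The 3 cap subunits lay close together. EXOSC2, or RRP4, had 280 with MYC siRNA and 428 with control siRNA (1.53-fold lower), and in a second probe set 154 with MYC siRNA and 214 with control siRNA (1.39-fold lower). EXOSC3, or RRP40, had 350 with MYC siRNA and 499 with control siRNA (1.42-fold lower), 268 with MYC siRNA and 428 with control siRNA (1.60-fold lower), and 68.5 with MYC siRNA and 99.0 with control siRNA (1.45-fold lower). All 3 of these probe sets can bind several transcripts, and RefSeq lists the pseudogenes EXOSC3P1 and EXOSC3P2. EXOSC1, or CSL4, had 325 with MYC siRNA and 454 with control siRNA (1.40-fold lower), in the 1 of its 3 probe sets that was above 50. Their log2 ratios were thus -0.61, -0.51 and -0.48, with a median of -0.51, close to the -0.57 of the 6 ring subunits.

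The enzymes were nearer to the control than most of the ring and cap. EXOSC10, the nuclear exonuclease RRP6 and autoantigen PM/Scl-100, had 242 with MYC siRNA and 259 with control siRNA, a log2 ratio of -0.10 that lay within the SD of 0.229 between probe sets, and 36.9% of all genes were as low. DIS3, which carries both exonuclease and endonuclease activity, had 538 with MYC siRNA and 551 with control siRNA (1.02-fold lower). Its other probe sets gave log2 ratios of -0.26, -0.21 and 0.07, so its direction was not settled. The 0.07 came from a probe set near the floor. It had 52.5 with MYC siRNA and 41.8 with control siRNA, the latter set to 50. DIS3L, the cytoplasmic relative, had 162 with MYC siRNA and 182 with control siRNA (1.12-fold lower). The difference between enzymes and ring was not tested, as 1 array per group gives no error for it.

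**Figure D2:**
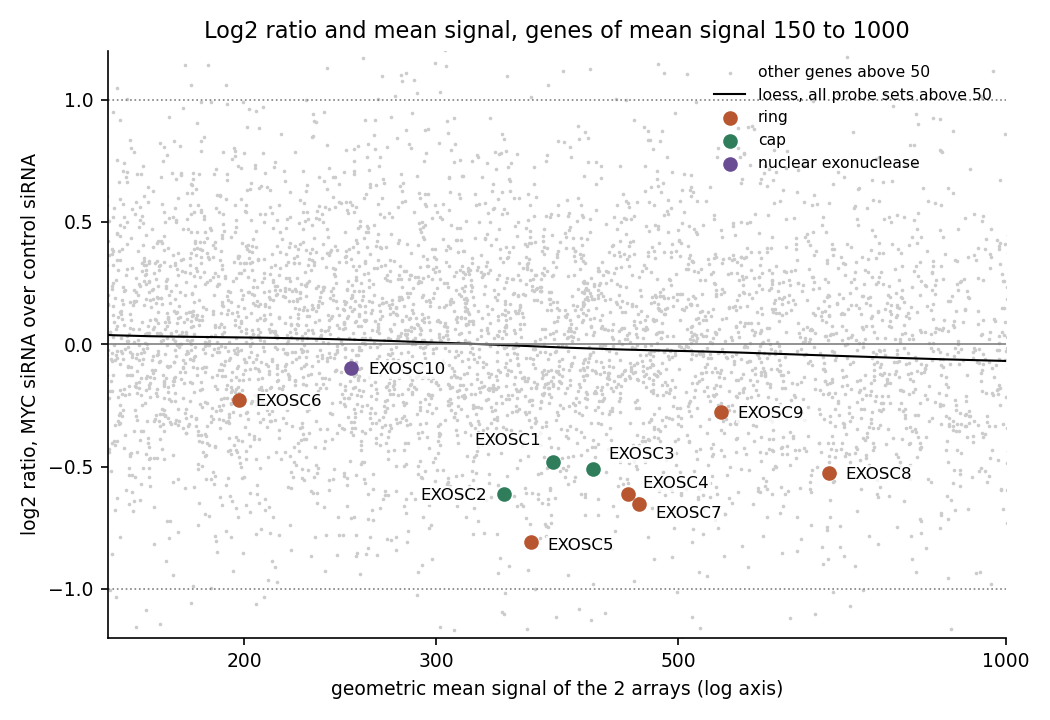
Log2 ratio, MYC siRNA over control (y axis), against the geometric mean signal of both arrays (x axis, log scale) for genes of mean signal 150 to 1000 (grey, 4658 genes; 71 beyond the y axis are left out), with ring (orange), cap (green) and EXOSC10 (purple) in colour and dotted lines at 2-fold. The black line is the loess trend of all probe sets above 50; the 10 members lie below it, EXOSC10 at -0.10 nearest and EXOSC5 at -0.81 farthest.

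In the order of log2 ratios, EXOSC5 (-0.81) was followed by EXOSC7 (-0.65), EXOSC4 (-0.61), EXOSC2 (-0.61), EXOSC8 (-0.52), EXOSC3 (-0.51), EXOSC1 (-0.48), EXOSC9 (-0.28), EXOSC6 (-0.23) and EXOSC10 (-0.10). No neighbours in this order differed by more than the SD expected for a difference between 2 probe sets, which was between 0.25 and 0.32. Sorting sets close values side by side, so this comparison of neighbours says little. The extremes, EXOSC5 and EXOSC10, were 0.71 apart, against an SD of 0.29 for such a difference. These were picked as the extremes of 10 values, which differ by more than a pair chosen without regard to its values, and the SD holds no variation between cultures, so the order is a description throughout.

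The members with CACGCG lay at separate places in this order. CACGTG was held by EXOSC5 alone among the matched members, so no spread can be described for it. EXOSC5, at -0.81, held both motifs, and EXOSC3, at -0.51, held CACGCG in the promoter of only 1 of its starts. EXOSC7, EXOSC2, EXOSC8, EXOSC9 and EXOSC6 held neither CACGTG nor CACGCG in the window searched. EXOSC10, at -0.10, held CACGCG. Outside the members, SKIC3 held CACGTG, at -0.15 in its brightest probe set and 0.17 in another. The cofactors with CACGCG were TENT4B (-0.78), MTREX (-0.38), ZFC3H1 (-0.09), PABPN1 (0.12, near the floor) and MPHOSPH6, which had no ratio. A link between motif and ratio was not tested. The promoters of EXOSC1 and EXOSC4 were not searched.

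The cofactors that bring RNA to the exosome in the nucleus were mixed. Of 12 such genes, 11 were above 50, of which 9 were lower and 2 were higher, with a median log2 ratio of -0.14. This median moved to between -0.35 and -0.23 under 4 of the alternatives, which included a floor of 100 and the second brightest probe set. MPHOSPH6 was not analysed here, as no probe set named it alone. The lowest was TENT4B, a poly(A) polymerase of the TRAMP complex, which tags nuclear RNA for decay. TENT4B had 248 with MYC siRNA and 424 with control siRNA (1.71-fold lower), and a second probe set was 1.60-fold lower. ZCCHC7, the zinc-knuckle protein of TRAMP, had 97.0 with MYC siRNA and 150 with control siRNA (1.55-fold lower). MTREX, the helicase common to several nuclear adaptors, had 691 with MYC siRNA and 901 with control siRNA (1.30-fold lower).

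RBM26 and RBM27, RNA-binding proteins of nuclear polyadenylated RNA decay, were 1.30-fold and 1.34-fold lower, and all 4 measured probe sets of RBM26 were lower. Nearer to the control were C1D, a partner of EXOSC10 (log2 ratio -0.14), TENT4A (-0.12), ZCCHC8 of the NEXT complex (-0.11) and ZFC3H1 of the PAXT connection (-0.09). PABPN1, the nuclear poly(A)-binding protein, had 60.6 with MYC siRNA and 55.8 with control siRNA, near the floor. RBM7, the RNA-binding subunit of NEXT, had 748 with MYC siRNA and 622 with control siRNA (1.20-fold higher), whereas its dim probe set was 1.49-fold lower, so its direction was not settled.

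In the cytoplasm, the SKI complex feeds mRNA to the exosome. Of 4 genes, 3 were lower and 1 was higher, with a median log2 ratio of -0.20. SKIC8, a WD-repeat subunit, had 1063 with MYC siRNA and 1337 with control siRNA (1.26-fold lower). HBS1L, of which a short isoform links SKI to the exosome, was 1.19-fold lower. SKIC2, the helicase, was 1.12-fold higher, and SKIC3, the scaffold, was 1.11-fold lower in one probe set and 1.13-fold higher in another. The median of the SKI genes turned to 0.01 once probe sets able to bind several transcripts were left out, and also with the second brightest probe set of each gene.

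**Figure D3:**
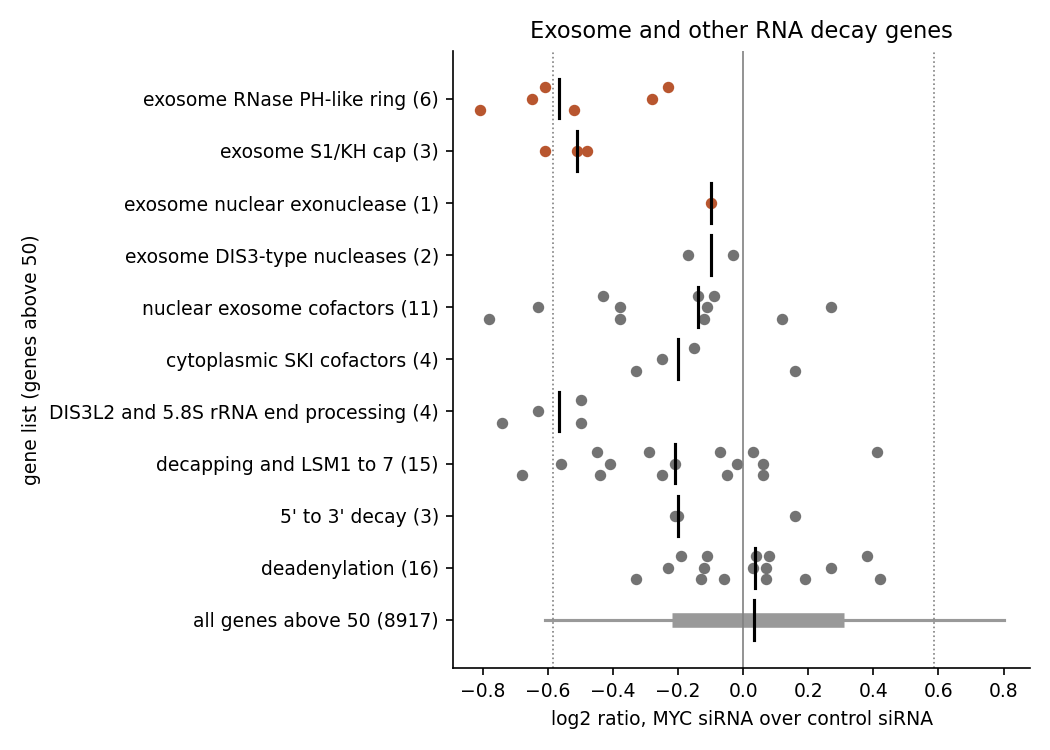
Log2 ratio, MYC siRNA over control (x axis), for genes above 50 in the lists of exosome members (orange) and of cofactors and other RNA decay genes (grey), with the number of genes in brackets, black bars at list medians and dotted lines at 1.5-fold. The bottom row gives all 8917 genes, with a thick bar from the 25th to the 75th percentile (-0.22 to 0.31) and a thin line from the 5th to the 95th (-0.61 to 0.80); the ring and cap medians are -0.57 and -0.51.

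Other RNA decay genes were set beside the exosome. In a list of the cytoplasmic nuclease DIS3L2 and of genes for 5.8S rRNA trimming and related assembly steps, 4 of 6 genes were above 50 and all 4 were lower, with a median of -0.57. ERI1, an exonuclease that trims the 3′ end of 5.8S rRNA and acts on histone mRNA, had 141 with MYC siRNA and 234 with control siRNA (1.67-fold lower). WDR74, a nucleolar protein that works with MTREX, had 431 with MYC siRNA and 665 with control siRNA (1.54-fold lower), and a second probe set was 1.84-fold lower. ISG20L2, another exonuclease of this step, was 1.42-fold lower. The last of the 4 was NVL, named after its values were seen, at 67.8 with MYC siRNA and 95.9 with control siRNA. DIS3L2 and NOP53 were not above 50.

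Of 15 measured decapping and LSM genes, 11 were lower and 4 were higher, with a median of -0.21 that shrank to -0.08 with floors of 25 and of 100 and to -0.07 once probe sets able to bind several transcripts were left out. LSM7, a subunit of the LSM ring that binds the end of deadenylated mRNA, was 1.60-fold lower and the only one past 1.5-fold. DCP2, the decapping enzyme, was 1.48-fold lower, EDC4 1.37-fold lower and LSM2 1.35-fold lower. The 4 higher genes, named after their values were seen, were PATL1 (1.33-fold higher), DCPS, LSM14A and EDC3, and the log2 ratios of the last 3 were 0.06, 0.06 and 0.03. LSM2 to LSM7 also belong to the nuclear ring on U6 RNA.

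Deadenylation genes lay around the array median, with 7 of 16 lower, 9 higher and a median of 0.03, which turned to -0.02 after quantile normalization. PARN, a poly(A)-specific ribonuclease, was 1.34-fold higher, the deadenylase CNOT8 1.30-fold higher, CNOT11 1.20-fold higher and CNOT10 1.25-fold lower. None of the 16 passed 1.5-fold in either direction. The 5′ to 3′ exonuclease genes gave log2 ratios of -0.20 for the nuclear XRN2 and 0.16 for the cytoplasmic XRN1, and -0.21 for DXO, a decapping exonuclease. A second probe set of XRN1 of similar brightness was 1.46-fold higher, and the median of the 3 genes, -0.20, turned to 0.05 once probe sets able to bind several transcripts were left out. These lists are described by counts and medians and none was shown to differ from the exosome.

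Over 95 values of the 10 genes under 10 alternatives, all 95 were below 0 and 92 moved by less than the SD between probe sets. The 3 that moved more were EXOSC4 at -0.83 as a mean over probe sets, and EXOSC7 at -0.38 with its second brightest probe set and, by the same probe set, without those that can bind several transcripts. Many of the 95 values could not move, so these counts say little about robustness. Each member's brightest probe set lay above the other floors and the brighter-array minimum in both arrays, so these settings returned the reported values. For the 5 members with 1 probe set above 50, the mean and the second brightest choice returned that same probe set. After loess on mean signal EXOSC5 was at -0.80 and EXOSC10 at -0.12. With means over probe sets the number of members lower by at least 1.5-fold was 2, EXOSC4 and EXOSC5, in place of 4. Of all genes, 5.17% were that low with such means.

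**Figure D4:**
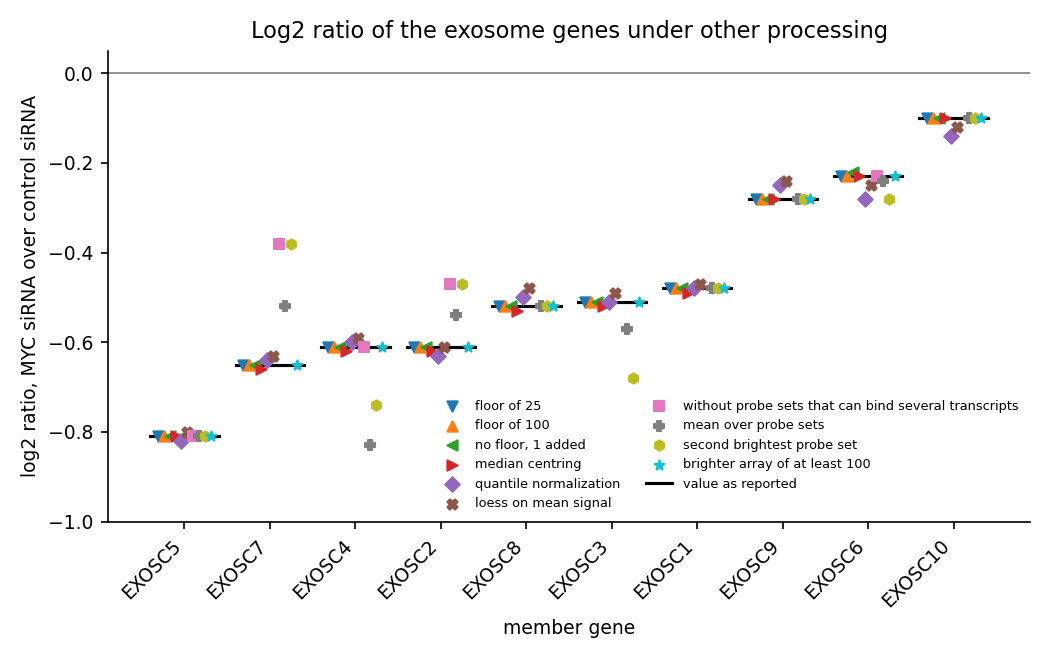
Log2 ratio, MYC siRNA over control (y axis), of each member (x axis, in the order of the values as reported, black bars) under 10 other ways of processing (symbols). All symbols lie below 0; EXOSC4 and EXOSC7 are the most spread, from -0.83 to -0.59 and from -0.66 to -0.38.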

How the data were processed

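For 2 conditions, GeneChip Human Genome U133 Plus 2.0 arrays of HT-29 cells were used, 1 for MYC siRNA and 1 for control siRNA. The deposited intensity values are signals on a linear scale, which the authors computed with the Microarray Suite algorithm (MAS5) in affy 1.40.0, bringing each array to an average of 100. After trimming 2% of probe sets at each end, both deposited columns averaged 100. This scaling hides any change in total mRNA per cell. The number of arrays and the spread between probe sets of a gene limit the precision, and no depth applies.

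Probe sets naming 1 gene (41097 of 54675) were used, with symbols updated through gene identifiers to RefSeq on GRCh38.p14. Signals under 50 were set to 50 and the log2 ratio (MYC siRNA over control) was taken, while the 37548 probe sets (68.7%) that were not above 50 in either array got no ratio. Each gene was represented by its brightest probe set, and 8917 genes were above 50. A fold of 2 marks a DEG in the methods, and 1.5 was added here.

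The members and lists were chosen with earlier results of these data known. Named are MYC, all members, all exosome nucleases and cofactors, and up to 4 genes of each other list with the largest log2 ratio in either direction and a brighter signal of at least 100. Motifs were searched on both strands. Calculations were tested on simulated arrays with known folds, made from the control array with random noise and no trend with brightness. Only medians over genes were checked, so this tests the calculation and not the precision of single ratios. The alternatives were floors of 25 and 100, no floor with 1 added, median centring, quantile normalization, loess (span 0.3), other choices of probe set, a brighter array of at least 100, and a fold of 3. Python 3.11.15, numpy 2.4.6, pandas 2.3.3, statsmodels 0.14.6 and matplotlib 3.10.9 were used.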

Additional observations from a re-analysis of the deposited data

How the results depend on the processing

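No paired analysis was possible because each group is 1 array, and for the same reason no replicate could be left out. The median of the exosome members lay between -0.53 and -0.47 in the alternatives run, and 0 members passed 2-fold or 3-fold. The other floors and the brighter-array minimum could not change this median, as every member's brightest probe set lay above them in both arrays. With probe sets able to bind several transcripts left out, 5 members remained measured, all 5 lower and 2 by at least 1.5-fold, with 1 cap gene, which was lower. Of all 6227 genes measured in that setting, 45.5% were lower, and 5.78% were lower by at least 1.5-fold. In that setting fewer genes of these lists were measured. Lower were 1 of 2 SKI genes, 1 of 2 genes of 5′ to 3′ decay, 3 of 11 deadenylation genes and 2 of 2 genes of 5.8S rRNA processing. The medians there were -0.35 for nuclear cofactors, 0.01 for SKI genes, 0.05 for 5′ to 3′ decay, -0.07 for decapping and -0.81 for 5.8S rRNA processing. Means over probe sets gave 2 members lower by at least 1.5-fold, where 5.17% of all genes were, and medians of -0.09 for SKI genes and -0.14 for decapping. The second brightest probe set gave medians of -0.45 for the ring, -0.23 for nuclear cofactors and 0.01 for SKI genes. The decapping median was -0.08 with floors of 25 and of 100, that of nuclear cofactors -0.26 with a floor of 100 or a brighter array of at least 100, and that of deadenylation -0.02 after quantile normalization. Some of these settings measured fewer genes, and with a floor of 25 there were 17 decapping genes in place of 15. The cause of these shifts was not tested in any setting. A median counts as moved past the SD between probe sets divided by the square root of the number of genes.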
